A study of Mus musculus with 6 samples.

Results

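The 10 genes described here encode ligands, receptors, feedback regulators and a target of the TGF-beta pathway: Tgfb1, Tgfb3, Inhba, Ltbp2, Tgfbr1, Tgfbr2, Tgfbr3, Smad7, Skil and Tgfbi. They were chosen by symbol, with earlier results of these data known. All 10 were found among the 35027 genes of the table and passed the filter on low values, a mean of at least 10 scaled reads, that left 16839 genes for testing. The RNA came from Kate-positive cells that were sorted out of dissociated mouse thyroid tumors. Kate is a red fluorescent protein that is expressed together with the dox-responsive transactivator once a Cre recombinase active in thyroid follicular cells has recombined the locus. Mice of both groups carried this Cre, this transactivator and a tetO transgene for YAPS127A, a constitutively nuclear form of the coactivator YAP, and were given dox chow from 4 weeks of age. YAP mice (3 libraries, replicates 1, 2 and 3) had no further oncogene, whereas BrafYAP mice (3 libraries, replicates 1, 2 and 6) also expressed BrafV600E from the endogenous locus in the same cells. By GEO's labels a YAP library was a pool of 3 tumors and a BrafYAP library was 1 tumor. Pooling and genotype therefore cannot be told apart, either in the group means or in the spread within each group. No mouse without the YAP transgene was included, and the age of the mice at tumor collection is not given in the sources used here.

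Cells release TGF-beta as a latent complex that LTBP proteins tether to the extracellular matrix. Once freed, the ligand binds the type II receptor, which phosphorylates the type I receptor, and the type I receptor phosphorylates SMAD2 and SMAD3, which enter the nucleus with SMAD4. Activins use the same SMADs through their own receptors. SMAD7 and SKIL limit the signal and are themselves induced by it in many cells. In thyroid follicular cells TGF-beta is a known inhibitor of growth, and in advanced carcinomas the pathway is associated with mesenchymal change. YAP shares several target genes with the SMADs, including Ctgf and Cyr61.

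About 20000 sorted cells went into a library, and the libraries held 26.3 to 37.6 M estimated reads. Estimated reads were obtained by undoing the division by gene length in the deposited values, and scaled reads are the same numbers returned to the scaling between libraries that the authors chose. Within a gene, values are given in scaled reads. Between genes, levels are given as TPM recomputed with the exonic length. PCR copies were not marked by molecular identifiers, and nothing states that the cells of a group came from separate litters or days, so the p-values measure the spread between these libraries. BrafYAP replicate 6 stood apart, with a Pearson's r of 0.73 to 0.84 with the other libraries across genes, which are not independent replicates. YAP replicate 1 was low in GC-rich transcripts. Values without one or the other of these libraries stand beside the results that they moved most. Thyroid follicular markers were present in each library, with a summed level of 323 to 620 TPM over 14 genes in YAP and 147 to 600 TPM in BrafYAP. The 9 epithelial markers summed to at least 7578 TPM in each library. Macrophage and myeloid markers were also present at a high level, with sums of 16304 to 51932 TPM over 14 genes in YAP and 4524 to 15892 TPM in BrafYAP, and 12 of the 14 were lower in BrafYAP at an unadjusted limma p under 0.05. In these bulk samples fewer cells of a type and less RNA per cell cannot be told apart. Macrophages express TGF-beta pathway genes, among them Tgfb1, Tgfbi and Tgfbr1, and the part of these cells in the values below was not tested.

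In levels per exonic length, Tgfbi was the most abundant of the 10 transcripts and Smad7 the least. The mean over 6 libraries was 374 TPM for Tgfbi, with a range of 215 to 692 TPM. Ltbp2 followed with a mean of 159 TPM and Tgfbr2 with 103 TPM. Below them were Tgfb3 at 38.6 TPM, Tgfbr1 at 19.4 TPM, Skil at 18.4 TPM, Inhba at 12.6 TPM, Tgfb1 at 11.7 TPM, Tgfbr3 at 7.19 TPM and Smad7 at 5.04 TPM. Most neighbours in this order were not separated by more than their spread. Of the 9 neighbouring pairs, only Tgfb3 above Tgfbr1 kept its order in all 6 libraries. Tgfbr1 lay above Skil in 3 of 6 libraries, Skil above Inhba in 4 of 6 and Inhba above Tgfb1 in 3 of 6. The other 5 pairs kept their order in 5 of 6 libraries.

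**Figure D1:**
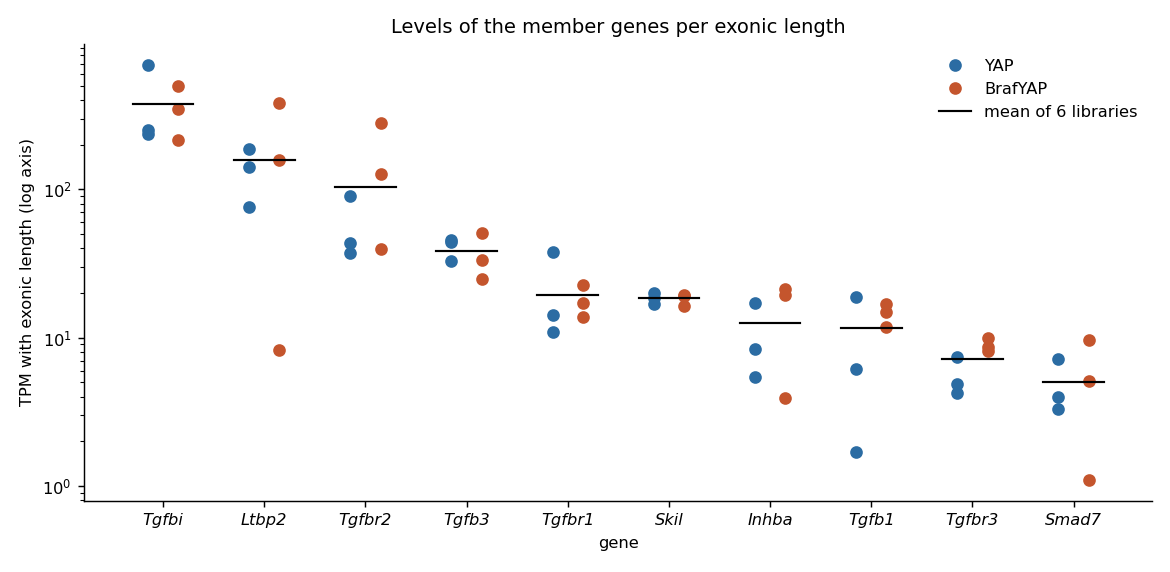
Levels of the 10 genes in TPM with the exonic length (log axis), in order of their mean (black line), with 1 point per library (blue, YAP; orange, BrafYAP). Tgfbi, at 215 to 692 TPM, and Smad7, at 1.10 to 9.58 TPM, bound the order, and the points of most neighbours overlap.

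The comparison of BrafYAP with YAP asks what BrafV600E adds to the pathway in cells that already express nuclear YAP. None of the 10 genes passed an adjusted p of 0.05 in limma, a test that called 0 of all 16839 genes (0%). At an unadjusted p under 0.05 there were 3403 genes (20.2%) over the table, but 0 of the 10. With voom the test also called 0 genes, whereas with array weights, which gave BrafYAP replicate 6 a weight of 0.22 and YAP replicate 3 a weight of 4.81, it called 4656 genes, including Tgfb1, Tgfbr2, Tgfbr3 and Inhba. The groups did not overlap for 1 of the 10 genes, Tgfbr3, against 4837 genes (28.7%) over the table. The median log2 fold change (BrafYAP minus YAP) of the 10 genes was -0.07, beside -0.12 over all genes tested, and 4 of the 10 values were above 0. Because median-ratio scaling moved the median over all genes to 0.01, a difference of this size within a gene is not read as a direction. Under median-ratio scaling 7 of the 10 values were above 0.

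**Figure D2:**
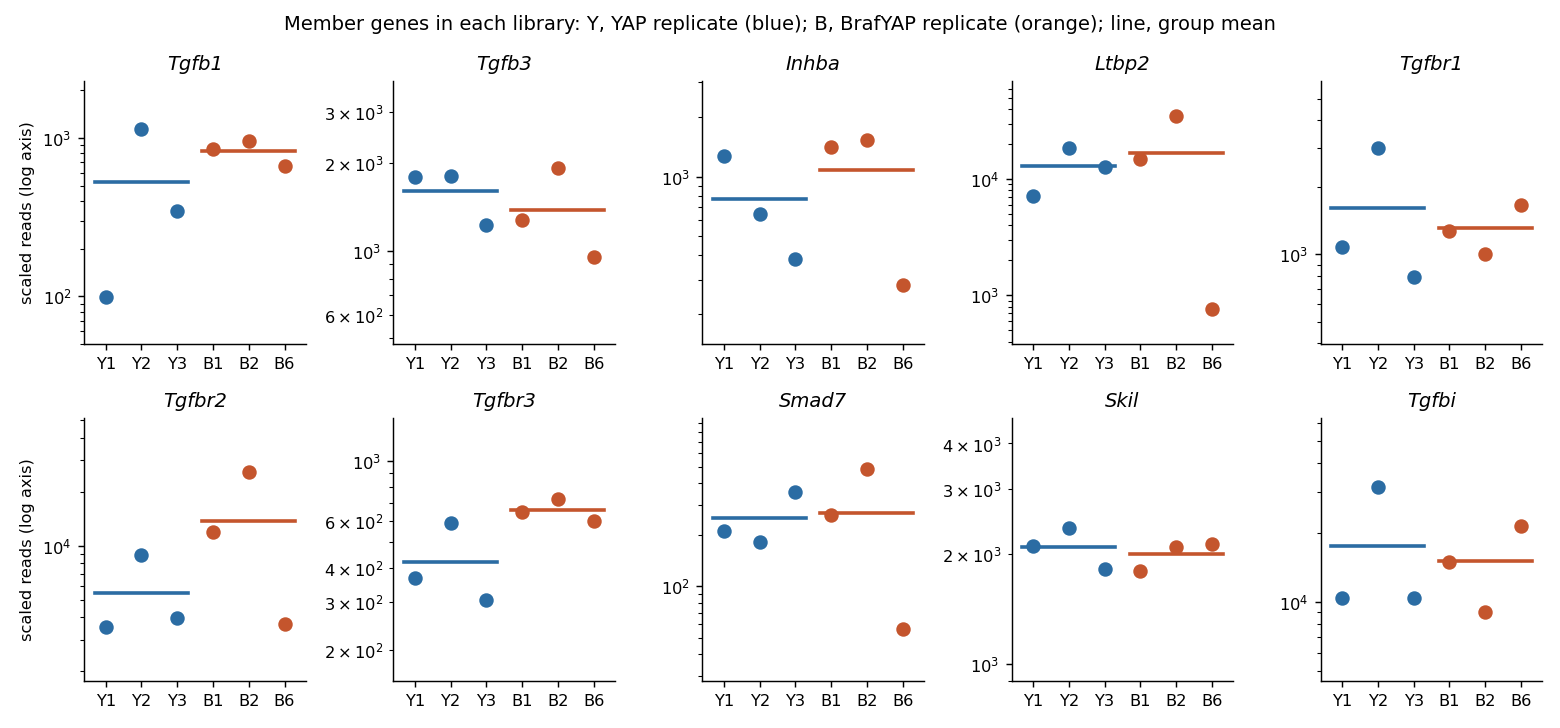
Scaled reads (log axis) of each gene in the 3 YAP libraries (Y, blue) and the 3 BrafYAP libraries (B, orange), with the group mean as a line. Only for Tgfbr3 do all BrafYAP points lie above all YAP points, and B6 is the lowest library for Tgfb3, Inhba, Ltbp2 and Smad7.

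Of the ligands, Tgfb1 encodes the founding TGF-beta isoform and lies at chr7:25687002-25705077 (mm10, plus strand). It had 99.7, 1142 and 345 scaled reads in YAP replicates 1, 2 and 3 and 855, 951 and 667 in BrafYAP replicates 1, 2 and 6. The BrafYAP libraries were close together, with 825 ± 145 (SD, n = 3), whereas the YAP libraries spread from the lowest to the highest value of the series, with 529 ± 545 (SD, n = 3). The 11.5-fold range within YAP was matched or exceeded by 3.61% of all genes tested, and the 1.43-fold range within BrafYAP by 74.9%. The log2 fold change was 1.26 (SE 0.80), with a limma adjusted p of 0.41. The 22 alternatives gave adjusted p-values of 0.047 to 0.79. Without YAP replicate 1 the log2 fold change was 0.38 (limma adjusted p = 0.79), and without YAP replicate 2 it was 2.13 (limma adjusted p = 0.10).

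YAP replicate 1 was the library that was low in GC-rich transcripts, and the Tgfb1 transcript, at 62.5% G+C, is the most GC-rich of the 10. Over the 139 genes within 1 percentage point of this composition, the median log2 deviation of YAP replicate 1 from the median of the 6 libraries was -1.57. Tgfb1 itself deviated by -2.91 in that library. In YAP replicate 3 the same 139 genes deviated by -0.37 and Tgfb1 by -1.13. Removal of each library's trend with GC left a log2 fold change of 0.32 for Tgfb1 (SE 0.50, limma adjusted p = 0.75). The contrast in composition is shown by the first 120 coding bases of Tgfb1, in exon 1, and of Skil, in exon 2, a gene of 41.0% G+C. Skil hardly varied between libraries, but other members of like composition did. Tgfbr1 (41.0%) ranged 3.79-fold within YAP and Inhba (41.4%) 5.40-fold within BrafYAP. Capitals mark G and C, and the sequences are those of the longest protein-coding transcripts of GENCODE M21 on the plus strand of mm10, at chr7:25687869-25687988 for Tgfb1 and chr3:31097331-31097450 for Skil.
Tgfb1: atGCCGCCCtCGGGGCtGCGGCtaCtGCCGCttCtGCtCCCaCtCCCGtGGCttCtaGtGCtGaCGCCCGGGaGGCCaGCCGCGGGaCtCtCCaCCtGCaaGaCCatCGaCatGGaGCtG
Skil: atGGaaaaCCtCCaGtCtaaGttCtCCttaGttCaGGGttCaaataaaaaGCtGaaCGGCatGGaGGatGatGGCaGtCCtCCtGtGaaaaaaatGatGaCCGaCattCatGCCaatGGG
In this stretch Tgfb1 has 82 G or C bases of 120 (68.3%) and 10 CG dinucleotides, and Skil has 53 (44.2%) and 2.

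**Figure D3:**
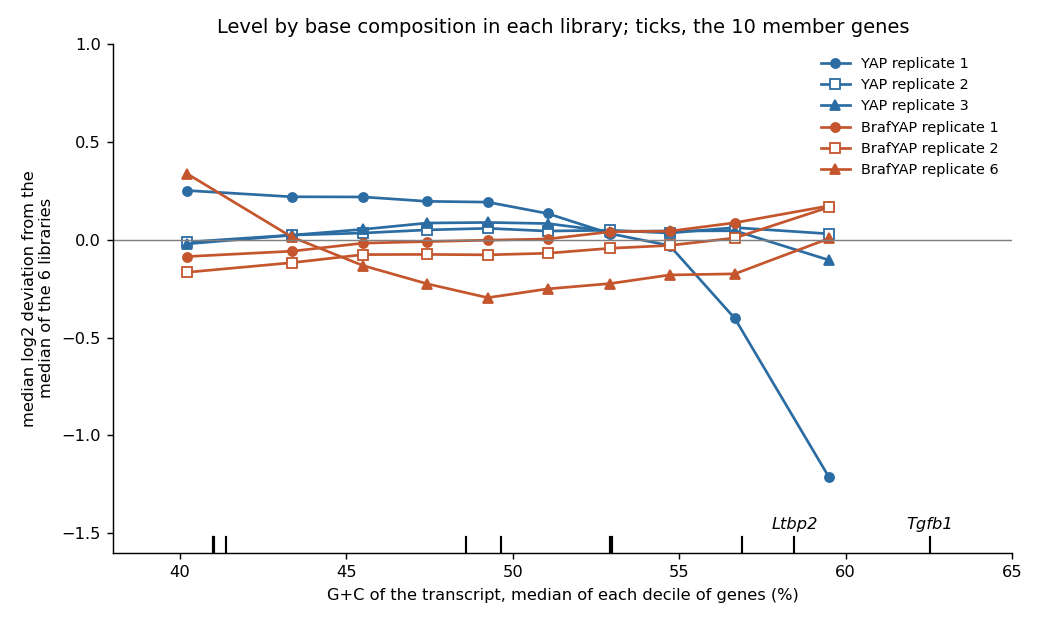
Median log2 deviation of each library from the median of the 6 libraries, by decile of transcript G+C (x axis, percent), with ticks at the 10 genes. YAP replicate 1 falls to -1.21 in the most GC-rich decile, whereas the other 5 libraries lie between -0.10 and 0.17 there.

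Tgfb3, the isoform gene at chr12:86056745-86079041 (minus strand), overlaps Ttll5 on the other strand. Whether exons are shared was not checked, and as no strand is stated for the counting, any reads of shared exons cannot be told apart. Its values were 1791, 1811 and 1228 scaled reads in YAP replicates 1, 2 and 3 and 1276, 1920.0 and 951 in BrafYAP replicates 1, 2 and 6. The groups overlapped, with the highest and the lowest library both in BrafYAP. The log2 difference, BrafYAP minus YAP, was -0.26 (SE 0.35, limma adjusted p = 0.70). Leaving out single libraries gave -0.52 at the lowest (BrafYAP replicate 2 left out) and -0.02 at the highest (BrafYAP replicate 6 left out). The sum of the 3 isoforms was made up mostly of Tgfb3. In levels per exonic length Tgfb3 gave 59.0 to 71.6% of the summed TPM of Tgfb1, Tgfb2 and Tgfb3 in YAP and 58.7 to 66.4% in BrafYAP. Tgfb1 gave 2.68 to 25.0% in YAP and 21.2 to 31.3% in BrafYAP. Tgfb2, which is not among the 10 genes, gave 16.0 to 25.7% in YAP and 2.32 to 15.0% in BrafYAP. Its shares did not overlap, but the margin was small, with 16.0% in YAP replicate 2 beside 15.0% in BrafYAP replicates 1 and 2. The 2.32% came from BrafYAP replicate 6 alone. The shares also depend on Tgfb1, whose low value in YAP replicate 1 is described above. In scaled reads the groups did not overlap for 28.7% of all genes tested.

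Inhba encodes the beta A subunit that forms activin A, and lies at chr13:16011851-16031621 (plus strand), with the antisense transcript Gm48444 on the other strand. It had 1274, 649 and 381 scaled reads in YAP replicates 1, 2 and 3 and 1415, 1525 and 282 in BrafYAP replicates 1, 2 and 6. BrafYAP replicates 1 and 2 were the highest libraries, and BrafYAP replicate 6 was the lowest. In limma the log2 fold change was 0.32 (SE 0.74, limma adjusted p = 0.83). It was 1.11 without BrafYAP replicate 6 (SE 0.51, limma adjusted p = 0.27) and fell below 0 without YAP replicate 3 (-0.10), without BrafYAP replicate 1 (-0.05) or without BrafYAP replicate 2 (-0.11). The partner subunit gene Inhbb, which encodes the beta B subunit of activin B, had a larger difference in relation to its standard error than any of the 10 genes with all 6 libraries. Its values were 323, 185 and 261 scaled reads in YAP and 995, 1126 and 1266 in BrafYAP. The groups were well apart, and BrafYAP was 2.17 higher on the log2 scale (SE 0.32, limma adjusted p = 0.064). Inhbb is GC-rich, at 60.9%, and after removal of the GC trend the difference was 1.48 (SE 0.52, limma adjusted p = 0.18), close to that of Tgfbr3 in relation to its standard error. With each library left out in turn it was 1.95 to 2.35. Inhba gave 49.3 to 72.4% of the summed TPM of both subunit genes in YAP and 12.9 to 48.6% in BrafYAP.

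Ltbp2 encodes a latent TGF-beta binding protein of the matrix that, unlike its relatives, is not known for holding the latent ligand. It lies at chr12:84783212-84876532 (minus strand) and has an antisense transcript, D030025P21Rik. The values were 7213, 18648 and 12802 scaled reads in YAP replicates 1, 2 and 3 and 14755, 34838 and 759 in BrafYAP replicates 1, 2 and 6. BrafYAP thus held the highest and the lowest library, 45.9-fold apart, a range that 2.62% of all genes tested matched or exceeded in BrafYAP. BrafYAP differed from YAP by -0.71 on the log2 scale (SE 1.30, limma adjusted p = 0.78), and this turned to 0.92 (SE 0.53, limma adjusted p = 0.36) without BrafYAP replicate 6, the upper end of a range of -1.84 to 0.92 with each library left out in turn. Ltbp2 is also GC-rich, at 58.5%, and removal of the GC trend in all 6 libraries gave -1.04.

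The receptors came next. Tgfbr1 encodes the type I receptor kinase, at chr4:47353222-47414931 (plus strand). It had 1081, 2999.9 and 791 scaled reads in YAP replicates 1, 2 and 3 and 1269.6, 1006 and 1668 in BrafYAP replicates 1, 2 and 6. YAP replicate 2 was the highest library and YAP replicate 3 the lowest, with the BrafYAP libraries between them. On the log2 scale BrafYAP minus YAP was -0.09 (SE 0.52, limma adjusted p = 0.94), and with each library left out in turn it ranged from -0.48 to 0.48, the upper value without YAP replicate 2.

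Tgfbr2, the gene of the type II receptor that binds the ligand first, lies at chr9:116084293-116175360 (minus strand). It was the most abundant of the receptor transcripts. It had 3536, 8901 and 3953 scaled reads in YAP replicates 1, 2 and 3 and 11864, 25792 and 3657 in BrafYAP replicates 1, 2 and 6. BrafYAP replicates 1 and 2 lay above each YAP library, but BrafYAP replicate 6 lay below YAP replicates 2 and 3. The log2 fold change was 1.06 (SE 0.72, limma adjusted p = 0.44). It was 1.81 (SE 0.52, limma adjusted p = 0.14) without BrafYAP replicate 6 but 0.40 (SE 0.65, limma adjusted p = 0.78) without BrafYAP replicate 2, and the adjusted p-values over 22 alternatives ranged from 0.015 to 0.78. Of the summed TPM of Tgfbr1, Tgfbr2 and Tgfbr3, Tgfbr2 gave 66.1 to 74.2% in YAP. In BrafYAP it gave 83.2% in replicate 1, 92.3% in replicate 2 and 56.3% in replicate 6.

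Tgfbr3 encodes betaglycan, the coreceptor that presents TGF-beta to the type II receptor and also binds inhibin. Its locus is chr5:107106570-107289629 (minus strand). Gm43422, Gm43423 and Gm42900 overlap it on the same strand and the pseudogene Gm8145 on the other. The values were 369, 587 and 307 scaled reads in YAP replicates 1, 2 and 3 and 647, 721 and 599 in BrafYAP replicates 1, 2 and 6. Each BrafYAP library lay above each YAP library, although BrafYAP replicate 6 exceeded YAP replicate 2 by a small margin. YAP libraries averaged 421 ± 147 (SD, n = 3) and BrafYAP libraries 656 ± 61.4 (SD, n = 3). The log2 difference, BrafYAP minus YAP, was 0.69 (SE 0.33), with an unadjusted limma p of 0.077 and an adjusted p of 0.29. It was 0.92 (SE 0.33, limma adjusted p = 0.18) after removal of the GC trend, and between 0.49 and 0.96 with each library left out in turn. An adjusted p of 0.015 was reached with array weights.

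The upstream sequences of Tgfbr2, Ltbp2 and Inhba are shown because these genes had their highest value in BrafYAP replicate 2, were lower in BrafYAP replicate 6, and have an entry in the RefSeq promoter table (GRCm38.p6), as 6 of the 10 genes do. The window runs 5′ to 3′ from 250 to 51 bases before the RefSeq start. Capitals mark CAGAC or its reverse complement, the core to which SMAD3 and SMAD4 bind. The windows lie at chr9:116175414-116175613 (minus strand), chr12:84876542-84876741 (minus strand) and chr13:16011601-16011800 (plus strand).
Tgfbr2: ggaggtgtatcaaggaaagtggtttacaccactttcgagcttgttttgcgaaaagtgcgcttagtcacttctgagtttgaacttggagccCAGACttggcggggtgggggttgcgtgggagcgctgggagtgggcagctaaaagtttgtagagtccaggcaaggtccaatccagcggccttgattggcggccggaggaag
Ltbp2: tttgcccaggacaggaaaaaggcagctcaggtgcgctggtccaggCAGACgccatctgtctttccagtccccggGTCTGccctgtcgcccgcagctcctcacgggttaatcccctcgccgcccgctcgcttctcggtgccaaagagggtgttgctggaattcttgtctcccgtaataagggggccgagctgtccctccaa
Inhba: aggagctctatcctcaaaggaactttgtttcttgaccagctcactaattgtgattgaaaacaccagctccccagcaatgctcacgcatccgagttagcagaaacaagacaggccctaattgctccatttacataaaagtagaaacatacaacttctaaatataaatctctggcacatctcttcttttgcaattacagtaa
CAGAC was found once in the Tgfbr2 window, 2 times in the Ltbp2 window and 0 times in the Inhba window. On either strand 35.8% of the 32851 windows of the table hold these letters, and 4 of the 7 windows of the genes described here do. The AP-1 motif TGANTCA (5.57% of all windows) and the TEAD motif GGAATG (10.7%) were found in 0 of the 7 windows, and the GC box GGGCGGG (16.3%) in 2, those of Tgfb1 and Tgfbr1. A match describes the letters and is not a binding site.

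Among the feedback genes, Smad7 encodes the inhibitory SMAD that blocks the type I receptor, and lies at chr18:75367529-75395935 (plus strand). It had 211, 182 and 356 scaled reads in YAP replicates 1, 2 and 3 and 263, 484 and 55.9 in BrafYAP replicates 1, 2 and 6. BrafYAP held both the highest and the lowest library, 8.64-fold apart. In limma the log2 fold change was -0.31 (SE 0.77, limma adjusted p = 0.84), and it turned to 0.57 (SE 0.44, limma adjusted p = 0.49) without BrafYAP replicate 6, whereas without BrafYAP replicate 2 it was -0.97.

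Skil encodes SnoN, a corepressor that holds SMAD targets silent, at chr3:31095058-31122577 (plus strand). It had 2102, 2352 and 1813 scaled reads in YAP replicates 1, 2 and 3 and 1796, 2082 and 2123 in BrafYAP replicates 1, 2 and 6. It varied least of the 10 genes, and 87.2% of all genes tested had at least its 1.30-fold range within YAP and 93.2% at least its 1.18-fold range within BrafYAP. BrafYAP differed from YAP by -0.06 on the log2 scale (SE 0.26, limma adjusted p = 0.92), with values from -0.16 to 0.03 when each library was left out in turn. Unlike Smad7, Skil was not low in BrafYAP replicate 6.

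Tgfbi encodes a secreted matrix protein named for its induction by TGF-beta, and its locus is chr13:56609523-56639562 (plus strand). It had 10406, 31621 and 10424 scaled reads in YAP replicates 1, 2 and 3 and 14889.5, 9052 and 21302 in BrafYAP replicates 1, 2 and 6. YAP replicate 2 was the highest library and BrafYAP replicate 6 the next. On the log2 scale BrafYAP minus YAP was -0.09 (SE 0.53, limma adjusted p = 0.94), and leaving out single libraries gave -0.38 at the lowest (BrafYAP replicate 6 left out) and 0.45 at the highest (YAP replicate 2 left out). Tgfbi therefore did not share the low value in BrafYAP replicate 6 that Ltbp2, Inhba, Smad7 and Tgfb3 had.

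**Figure D4:**
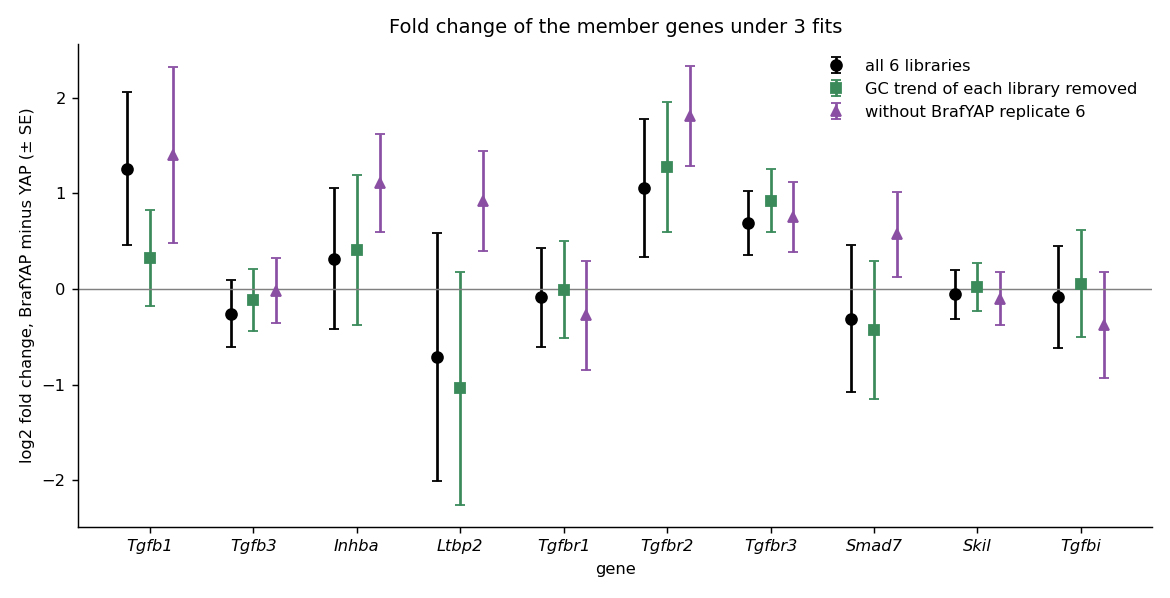
Log2 fold change (BrafYAP minus YAP, ± SE from limma) of the 10 genes with all 6 libraries (circles), after removal of the GC trend of each library (squares) and without BrafYAP replicate 6 (triangles). Tgfb1 moves from 1.26 to 0.32 with the GC trend removed, and Ltbp2 from -0.71 to 0.92 and Smad7 from -0.31 to 0.57 without BrafYAP replicate 6.

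Without BrafYAP replicate 6, 3 of the 10 genes (Tgfbr2, Tgfbr3 and Inhba) did not overlap between the groups, against 43.8% of the 16595 genes tested then, and the median log2 fold change of the 10 was 0.66, beside -0.09 over all genes. The limma test called 142 genes, 0 of them among the 10. The unadjusted p was under 0.05 for 1 of the 10, Tgfbr2, against 21% of all genes tested then.

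The rest of the pathway was described by 87 genes in 5 lists, of which 82 passed the filter. None passed an adjusted p of 0.05. At an unadjusted p under 0.05, 10 were higher and 7 lower in BrafYAP, together 20.7% of the 82, against 20.2% of all genes tested (9.68% higher and 10.5% lower), so that the share was that of the table. The median log2 fold change over the 82 was -0.20, beside -0.12 over all genes. The adjusted p-values of these 17 genes were 0.064 to 0.24. Without BrafYAP replicate 6 the median over the lists was 0.36, beside -0.09 over all genes, and 16 genes were higher and 6 lower at an unadjusted p under 0.05, against 9.43% higher and 11.5% lower over all genes tested. The 17 genes were chosen by that p, so their values are a description. The p stayed under 0.05 for 7 of the 17 with each library left out in turn (Snai2, Gdf15, Inhbb, Acta2, Itgb6, Strap and Acvr2a) and for 14 of the 17 after removal of the GC trend, the others being Junb, Zeb1 and Zeb2.

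Of the 17 tested genes for ligands and latency, 3 were higher and 1 lower at an unadjusted p under 0.05, with a median of -0.49. This was 23.5% of the list, near the 20.2% of all genes. Besides Inhbb, the higher genes were Gdf15, a divergent stress-induced cytokine of the family, and Ltbp3, which carries the latent ligand. Gdf15 had 111, 2875 and 749.8 scaled reads in YAP and 5597, 4583 and 6897 in BrafYAP, and Ltbp3 had 704, 3462 and 2179 in YAP and 5221, 5484 and 4764 in BrafYAP. Both were lowest in YAP replicate 1 and both are GC-rich, at 61.3% and 61.5%. After removal of the GC trend the log2 fold change of Gdf15 went from 3.17 to 2.42 and that of Ltbp3 from 1.56 to 0.78, and without YAP replicate 1 they were 1.93 and 0.91. The lower gene was Itgb6, the beta subunit of the integrin that frees latent TGF-beta on epithelia. It had 8015, 3764 and 10308 scaled reads in YAP and 3073, 1600.5 and 1340.0 in BrafYAP, groups that did not overlap (log2 fold change -1.85, SE 0.48). Tgfb2 had 1101, 839 and 793 scaled reads in YAP and 557, 773 and 56.8 in BrafYAP. These groups did not overlap either, but the difference of -1.63 on the log2 scale (SE 0.92, limma adjusted p = 0.36) was -0.46 without BrafYAP replicate 6.

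Of the 5 tested receptor and coreceptor genes, 1 (20%, as over all genes) was higher, Acvr2a, an activin type II receptor. It had 48.8, 56.7 and 37.9 scaled reads in YAP and 89.8, 156 and 221 in BrafYAP, without overlap (log2 fold change 1.61, SE 0.46). None of the 7 tested genes for SMADs and nuclear partners had an unadjusted p under 0.05. The log2 fold change was -0.40 (SE 0.28) for Smad2 and 0.57 (SE 0.39) for Smad3, the signal-carrying SMADs, and -0.13 (SE 0.33) for Smad4, their common partner. Their libraries overlapped between the groups, with ranges of 883 to 1622 scaled reads for Smad2, 503 to 1529 for Smad3 and 343 to 635 for Smad4.

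Of the 19 tested feedback and inhibitor genes, 3 were higher and 0 lower, a share of 15.8% that lay below the 20.2% of all genes. Fkbp1a, which encodes FKBP12, a binder of the type I receptor, had 1797, 11102 and 5378 scaled reads in YAP and 17967, 19823 and 14162 in BrafYAP (log2 fold change 1.85, SE 0.62). Strap, an adaptor that works with SMAD7, had a log2 fold change of 1.67 (SE 0.51). Dcn, a matrix proteoglycan that binds TGF-beta and is also among the fibroblast markers, had a log2 fold change of 1.94 (SE 0.67). For each of the 3 every BrafYAP library lay above every YAP library, and each had a GC-trend-removed value at least as large, of 2.05, 1.84 and 2.06. Fkbp1a and Strap were lowest in YAP replicate 1 and had values of 1.15 and 1.16 without it. Dcn was 1.28 without YAP replicate 3.

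Of the 34 target genes 3 were higher and 6 lower, or 8.82% and 17.6% against 9.68% and 10.5% of all genes, with a median of -0.11 beside -0.12 over all genes. The higher genes were Snai2, a transcription factor of mesenchymal change, Cdkn2b, a cyclin-dependent kinase inhibitor, and Junb, an AP-1 subunit. Snai2 was low throughout, with 5.14, 13.5 and 0 scaled reads in YAP and 57.6, 60.4 and 85.2 in BrafYAP. Cdkn2b had 225, 4827 and 964 in YAP and 9436, 15169 and 2717 in BrafYAP. Junb, at 62.6% G+C, had 1115, 52174 and 8512 in YAP and 59098, 56151 and 78396 in BrafYAP, and its log2 fold change of 3.01 was 2.07 without the GC trend. The spread within YAP was wide for Cdkn2b and Junb, and their lowest value was again in YAP replicate 1. Without that library the log2 fold change went from 2.84 to 1.76 for Cdkn2b and from 3.01 to 1.60 for Junb, and neither kept an unadjusted limma p under 0.05.

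The lower genes were the smooth muscle actin gene Acta2, the collagen gene Col1a1, the matrix protein gene Sparc, the metalloprotease gene Adam12 and the transcription factor genes Zeb1 and Zeb2. Acta2 had 20670, 18984 and 10390.4 scaled reads in YAP and 3648, 4560 and 672 in BrafYAP (log2 fold change -2.84, SE 0.73). The log2 difference, BrafYAP minus YAP, was -2.17 for Adam12, -1.57 for Sparc, -1.50 for Col1a1, -1.10 for Zeb2 and -0.95 for Zeb1. Apart from Zeb1 the groups did not overlap. BrafYAP replicate 6 was the lowest library for each of the 6. Without it the differences were smaller, at -1.97 for Acta2, -1.42 for Adam12, -0.86 for Sparc, -1.07 for Col1a1, -0.76 for Zeb2 and -0.77 for Zeb1. The unadjusted limma p of Zeb2 was then 0.069 and that of Zeb1 0.11, and after removal of the GC trend they were 0.065 and 0.086. Acta2 also belongs to the 8 pericyte and smooth muscle markers, and was the only one of the 8 with an unadjusted limma p under 0.05. The 8 markers summed to 446 to 837 TPM in YAP and 62.1 to 213 TPM in BrafYAP, sums that include Acta2. In scaled reads Acta2 was the highest of the 8 in each library. Of the others, Pdgfrb, Rgs5, Cspg4 and Myh11 had log2 fold changes of -0.45, -0.10, -0.39 and -0.64. Those of Des, Notch3 and Kcnj8 were 1.62, 0.44 and 2.51, so that this list did not move one way either. Col1a1 belongs to the 10 fibroblast markers, with sums of 311 to 509 TPM in YAP and 142 to 330 TPM in BrafYAP. Of the 9 fibroblast markers tested, Col1a1 and Pdpn were lower and Dcn and Lum higher at an unadjusted p under 0.05, so that this list did not move one way. The part of such cells in these differences was not tested.

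BrafYAP replicate 6 was the lowest library for 4 of the 10 genes and for 23 of the 34 target genes (67.6%), beside 31.1% of all genes tested. Over the 5 lists together it was the lowest for 46 of 82 genes (56.1%). Ctgf and Cyr61, shared targets of YAP named here after their values were seen, were both lowest in that library. Ctgf had 18508, 88466 and 33819 scaled reads in YAP and 241854, 393463 and 10775 in BrafYAP, and Cyr61 had 11402, 129565 and 45861 in YAP and 145753, 144198 and 7155 in BrafYAP. For both genes BrafYAP replicates 1 and 2 lay above each YAP library. The log2 fold change was 1.40 (SE 1.33) for Ctgf and 0.38 (SE 1.34) for Cyr61. Without BrafYAP replicate 6 these were 3.02 and 1.83, the upper ends of ranges from 0.42 and -0.54 with each library left out in turn. In BrafYAP replicate 6 the 5 C cell and parathyroid markers summed to 872 TPM, beside 0.21 to 194 TPM in the other libraries, and the 14 thyroid follicular markers to 600 TPM, beside 147 to 620 TPM. The part of these cells in the low values was not tested.

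**Figure D5:**
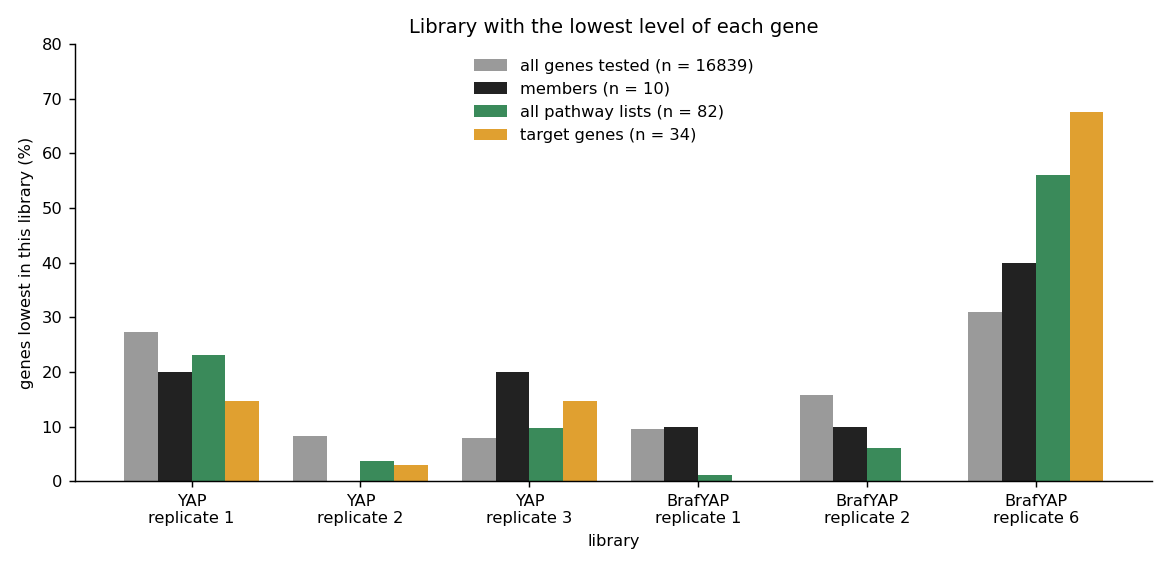
Share of genes (percent) whose lowest value lay in each library, for all 16839 genes tested (grey), the 10 genes described here (black, in the legend as members), the 82 tested pathway genes (green) and the 34 target genes among them (yellow). BrafYAP replicate 6 holds the lowest value of 67.6% of the target genes and of 31.1% of all genes.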

How the data were processed

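STAR 2.6.1d was used by the authors for alignment to mm10. They quantified reads with Partek's E/M model on Ensembl 95 and deposited one table of TPM with 0.0001 added. Low values were within 0.05 of whole multiples of one step per library for 71.7 to 76.0% of genes when multiplied by the genomic span, and for 15.8 to 18.0% for the exonic length. The deposited TPM thus rest on a length that includes introns. Estimated reads are (value - 0.0001) × span / step, with spans from GENCODE M21. 34653 of 35027 genes had one, 13 of them through a RefSeq synonym. The labels differ from the paper's methods on pooling and from its results on the start of dox, and the labels were followed.

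BrafYAP was compared with YAP in limma 3.58.1 (R 4.3.3) (trend in eBayes, two-sided) on log2(scaled reads + 1), a scale that understates changes of low genes. Genes needed a mean of 10 scaled reads or more, and p-values were adjusted after Benjamini and Hochberg over all genes tested, with a threshold of 0.05. The fit was tested on simulated data with no outlying library and no GC trend, so that test does not cover these features of the libraries. Alternatives were the deposited and exonic-length TPM, pseudocounts of 10 and 0.1, no filter or a mean of at least 100, median-ratio, total-read and quantile scaling, no trend, array weights, voom, protein-coding genes only, a replicate block and each library left out. Removal of each library's GC trend (lowess of the log2 deviation on transcript G+C, span 0.2) was added after seeing the data. The 10 genes and the lists were chosen with earlier results of these data known. Named from the lists were Tgfb2, Smad2, Smad3, Smad4 and genes with an unadjusted p under 0.05, and 1 further gene of the rule is not reported here. T cell (14.1 to 30.9 TPM), endothelial (3.59 to 65.1 TPM) and platelet markers (19.4 to 325 TPM) were also summed in each library. Of the 6 platelet markers, Gp9, Gp1bb and Treml1 had under 3 estimated reads in every library.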

Additional observations from a re-analysis of the deposited data

How the results depend on the processing

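With 0 genes called among 16839, the number of calls was the least stable result. It was 18 on the deposited TPM, 63 on the TPM with the exonic length, 45 with a pseudocount of 10, 55 with total-read scaling, 62 with quantile scaling, 20 without a trend and 4656 with array weights. Removal of the GC trend gave 18, and 150 when BrafYAP replicate 6 was also left out. When each library was left out in turn the calls ranged from 0 to 142, with 142 without BrafYAP replicate 6 and 3 without YAP replicate 2. Of the 10 genes, array weights called 4, and under the 21 other alternatives 0 of those tested were called. The number of the 10 at an unadjusted p under 0.05 was 0, and it was 1 with median-ratio scaling, 4 with array weights, 1 without the GC trend, 3 without the GC trend and BrafYAP replicate 6, and 0 to 2 with each library left out, where 2 was reached without YAP replicate 2 and 1 without BrafYAP replicate 6. Over all genes, 3394 of 16852 had such a p with median-ratio scaling and 6921 of 16839 with array weights. Of the same 16839 it was 3503 without the GC trend and 3584 without the GC trend and BrafYAP replicate 6. It was 3842 of 16876 without YAP replicate 2 and 3481 of 16595 without BrafYAP replicate 6. The number whose groups do not overlap was 1, but 0 on the deposited TPM, where 7 of the 10 passed the filter, 3 without the GC trend and BrafYAP replicate 6, and 1 to 3 with each library left out. Over all genes it was 2061 of 7319 on the deposited TPM and 7187 of 16839 without the GC trend and BrafYAP replicate 6. With each library left out it was 5865 to 7877 over all genes. In the pathway lists the 10 higher and 7 lower genes became 30 and 11 of 82 with array weights, beside 3279 and 3642 of all 16839 genes. On the deposited TPM, where 44 list genes passed the filter, 4 were lower, beside 671 of all 7319 genes. The higher genes ranged from 6 to 16 with each library left out, with 6 without BrafYAP replicate 1 or 2 and 16 without replicate 6, and the lower genes from 4 (without YAP replicate 2) to 10. Over all genes the higher then ranged from 1081 to 2371 and the lower from 1201 to 1916.

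Array weights raised the log2 fold changes of Tgfb1 to 1.31, Tgfbr2 to 1.81, Tgfbr3 to 1.02 and Inhba to 1.63, past the threshold, and turned the sign of Tgfb3 (0.16), Tgfbr1 (0.37), Skil (0.026), Tgfbi (0.13) and Ltbp2 (0.45). Median-ratio scaling turned Tgfbr1 (0.033), Skil (0.065) and Tgfbi (0.037), and quantile scaling turned Tgfbi (0.014). Without the GC trend Skil was 0.024 and Tgfbi 0.053, and without BrafYAP replicate 6 as well, Tgfb3 was 0.027, Smad7 0.38, Skil 0.11 and Ltbp2 0.52. With each library left out in turn the ranges that crossed 0 were -0.48 to 0.48 for Tgfbr1, -0.97 to 0.57 for Smad7, -0.16 to 0.031 for Skil, -0.38 to 0.45 for Tgfbi, -1.84 to 0.92 for Ltbp2 and -0.11 to 1.11 for Inhba. Tgfb1, Tgfbr2 and Tgfbr3 kept their sign under each alternative run. The causes were not tested.

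Replicate numbers 1 and 2 occur in both groups. Deviations of same-numbered libraries correlated at -0.03 and 0.05, beside -0.06 and -0.03 for crossed numbers. The deviations are from means of 3 libraries, which in BrafYAP include replicate 6. They thus cannot show whether same-numbered samples shared a litter, day or batch. With the replicate number as a block 0 genes were called. An unadjusted limma p under 0.05 was found for 2 of the 10 (Tgfbr2 and Ltbp2), beside 2533 of all 16839 genes. The lists had 4 lower genes of 82, beside 1413 over all genes, and Smad7 (0.86) and Ltbp2 (0.97) changed sign. That fit drops the unshared numbers 3 and 6, and so BrafYAP replicate 6, from the contrast. With 3 libraries a group, the differences were within 2 standard errors for 9 of the 10 genes, and a missed threshold does not show that the groups were alike.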
